A study of Homo sapiens with 4 samples.

Results

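TPC-1 cells held at 40 °C were compared with TPC-1 cells held at 37 °C. TPC-1 is an established human line of papillary thyroid carcinoma, a cancer of the hormone-producing follicular cells of the thyroid, and the line is known for a rearrangement of the RET kinase gene. The comparison rests on 2 of the 4 libraries of the study, 1 library of TPC-1 at each temperature, chosen by their line and temperature labels. The remaining 2 libraries are of B-CPAP, another papillary thyroid carcinoma line, at the same temperatures. Both TPC-1 groups grew in submerged T25 flasks, with the water temperature as the one difference that the labels give, and no other agent is named. For how long is given in 3 ways, 24 h in the treatment field, 15 min in the growth protocol and 20 min in the series design, so the true length is uncertain. The study is titled as one of transient thermal stress, and the comparison asks which transcripts differ at the higher temperature.

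Each group is 1 library, and the labels name no separate cultures. No test between temperatures was therefore possible, and no p-value is given. Each difference is a description of these 2 libraries with no replicate check, set beside the spread over all genes. Values are TPM, a unit of transcript abundance that scales reads by gene length and by library total, and pairs of TPM are given with the 37 °C library first. Differences are of log2(TPM + 1), 40 °C minus 37 °C. Ratios are of TPM, each with a 95% exact (Clopper-Pearson) interval from estimated reads, which covers counting error only and compares libraries, not conditions. Genes with at least 5 TPM in either TPC-1 library were kept, 9346 of the 19945 protein-coding genes and 893 others. Just inside this limit stood KIAA1958, at 4.47 and 5.0 TPM, and just outside it MAMLD1, at 4.58 and 4.997 TPM.

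The 2 TPC-1 libraries held an estimated 22054469 and 20704495 reads. Mitochondrially encoded genes took 16.8% of TPM at 37 °C and 19.9% at 40 °C. Of 7 markers of thyroid follicular cells, the lineage factors PAX8 (284.4 and 266.7 TPM) and FOXE1 (9.70 and 8.0 TPM) were expressed. The differentiation genes TSHR and SLC5A5 and the factor NKX2-1 were listed at 0 in both libraries, and TG stood at 0.62 and 0.75 TPM. The thyroid label therefore rests on PAX8 and FOXE1 and not on hormone synthesis genes. The epithelial keratins KRT8 (168.0 and 138.9 TPM) and KRT18 (283.1 and 235.9 TPM) were present, and CDH1 and EPCAM were at or near 0. Markers of other cell types were low at both temperatures. The 9 fibroblast markers summed to 9.42 and 9.91 TPM with 4 at 0, the 5 endothelial markers to 1.96 and 1.31 TPM, and the 5 leukocyte markers to 0.50 and 1.37 TPM with 4 at 0. In such bulk RNA, fewer cells with a transcript and less of it per cell cannot be told apart.

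Mammalian cells meet raised temperature with the heat shock response, in which unfolding proteins free the transcription factor HSF1 to bind heat shock elements in the promoters of chaperone genes. Mild warming also shifts RNA processing, since the CLK kinases that phosphorylate SR splicing proteins are temperature sensitive, and cold-inducible RNA-binding proteins such as CIRBP and RBM3 are known to decline with warmth. Thyroid carcinoma cells are moreover driven by ERK signalling, whose feedback genes report its output.

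Across TPC-1, AT-rich genes stood higher and GC-rich genes lower in the 40 °C library. Over the 9333 nuclear protein-coding genes the log2 difference had a Spearman's rho of -0.67 with the GC content of the exons, a description across genes that share both libraries. With these genes in 10 equal groups by GC content, the median log2 difference was 0.24 in the poorest group (31.7 to 39.0%) and -0.19 in the richest (61.3 to 73.8%). In B-CPAP the same groups had medians of 0.61 and -0.35. The trend in TPC-1 thus ran in the same direction as in B-CPAP and over a narrower range. Over all protein-coding genes the median was 0.01, with 52.4% higher at 40 °C, so the trend tilts the genes around an almost level centre. Its origin in the cells or in library preparation was not tested.

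**Figure D1:**
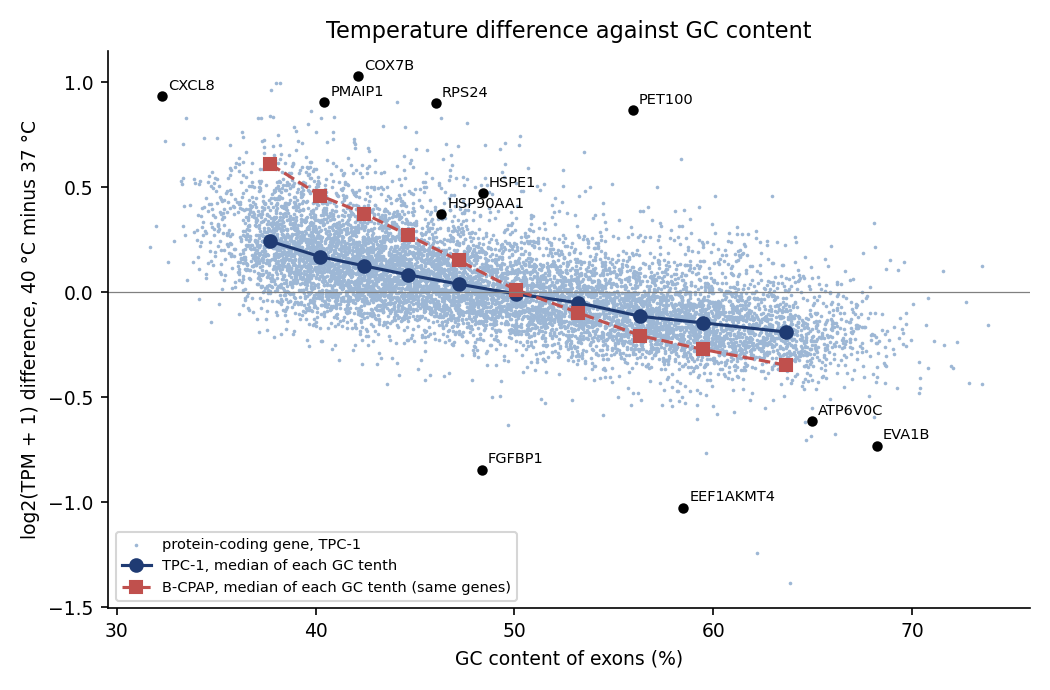
Log2(TPM + 1) difference (40 °C minus 37 °C) against exonic GC content in percent; each dot is 1 protein-coding gene of TPC-1, black dots are labelled genes, and the joined symbols are medians of 10 equal groups by GC in TPC-1 (circles) and B-CPAP (squares). The TPC-1 medians run from 0.24 in the poorest group to -0.19 in the richest, and the B-CPAP medians from 0.61 to -0.35.

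Base composition at both ends of the trend is shown in coding sequence. Each stretch below is the central 90 bases of the longest coding exon in the longest coding transcript (GENCODE 29, GRCh38, 5′ to 3′ on the gene's minus strand), with G and C in capitals. TXNDC9 and KRCC1 are among the 15 largest differences on the higher side, and EVA1B and RILP among the 15 on the lower side. By exonic GC content TXNDC9 and KRCC1 lie in the poorest of the groups above, and EVA1B and RILP in the richest. Genes poorer still, such as CXCL8 (32.3%), were also among the 15 on the higher side. Over the 8 largest differences upward with a counting interval that excludes 1, such stretches held 34 to 69 G or C bases (median 40), and over the 8 downward 40 to 70 (median 63). The ranges overlapped, since PCGF6 on the higher side held 69 and RPS24 51, and FGFBP1 on the lower side held 40. In TXNDC9 (chr2:99322037-99322126) and KRCC1 (chr2:88028130-88028219) 37 and 34 of the 90 bases are G or C. In EVA1B (chr1:36322467-36322556) and RILP (chr17:1648877-1648966) 67 and 70 are.
TXNDC9: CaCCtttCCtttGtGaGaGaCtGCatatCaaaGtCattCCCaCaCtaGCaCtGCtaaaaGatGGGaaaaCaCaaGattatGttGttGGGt
KRCC1: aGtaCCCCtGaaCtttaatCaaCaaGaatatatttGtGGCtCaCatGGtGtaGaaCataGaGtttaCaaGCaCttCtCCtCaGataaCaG
EVA1B: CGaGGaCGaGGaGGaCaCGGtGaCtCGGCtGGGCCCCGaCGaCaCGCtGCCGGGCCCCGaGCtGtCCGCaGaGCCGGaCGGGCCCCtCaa
RILP: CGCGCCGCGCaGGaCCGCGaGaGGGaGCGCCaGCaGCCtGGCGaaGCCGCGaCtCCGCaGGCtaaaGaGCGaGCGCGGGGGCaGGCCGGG

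Of the 9346 protein-coding genes, 116 (1.24%) were at least 1.5-fold higher at 40 °C, and 14 (0.15%) were lower by as much. At 2-fold, 1 gene (0.0107%) stood higher and 3 (0.0321%) lower. Quantile normalization of the libraries gave 65 higher and 36 lower at 1.5-fold. The genes on either side parted by composition, as the median GC content was 39.6% for the 114 nuclear genes on the higher side and 64.2% for the 14 on the lower side, against 48.4% for all. Because of this tilt each gene was also set against its neighbours in exonic GC content, the 100 protein-coding genes on each side. The median difference of those genes was subtracted, and the remainder is called the GC-matched difference. A gene was called by this measure when it stood at least 0.32 apart on the log2 scale. So called were 408 genes (4.37%) higher and 123 (1.32%) lower, and after quantile normalization 338 higher and 217 lower. With the limit at 1.5-fold, 44 (0.471%) and 6 (0.0642%) were left. Of the 116 higher genes 114, and of the 14 lower genes all 14, were also called by GC-matched difference. The 1.5-fold limit before matching is stricter than the 0.32 after it, so nearly all had to be called again. This overlap is therefore no check on the calls.

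Short coding sequences and low levels were common among the GC-matched calls. The share of genes called higher was 8.57% in the shortest of 5 equal groups by coding length (median 552 bases) and 1.77% in the longest (median 3564 bases). By level it was 10.2% in the lowest of 5 equal groups by mean TPM and 1.5% in the highest. Median coding length was 900 bases for 405 nuclear genes called higher and 1401 bases for all genes. Genes with the fewest reads have the widest counting error, and 388 of the 408 (4.15% of all) and 113 of the 123 (1.21%) had an interval that lay apart from the ratio of like-GC genes. The part of coding length in these calls was not tested apart from level.

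**Figure D2:**
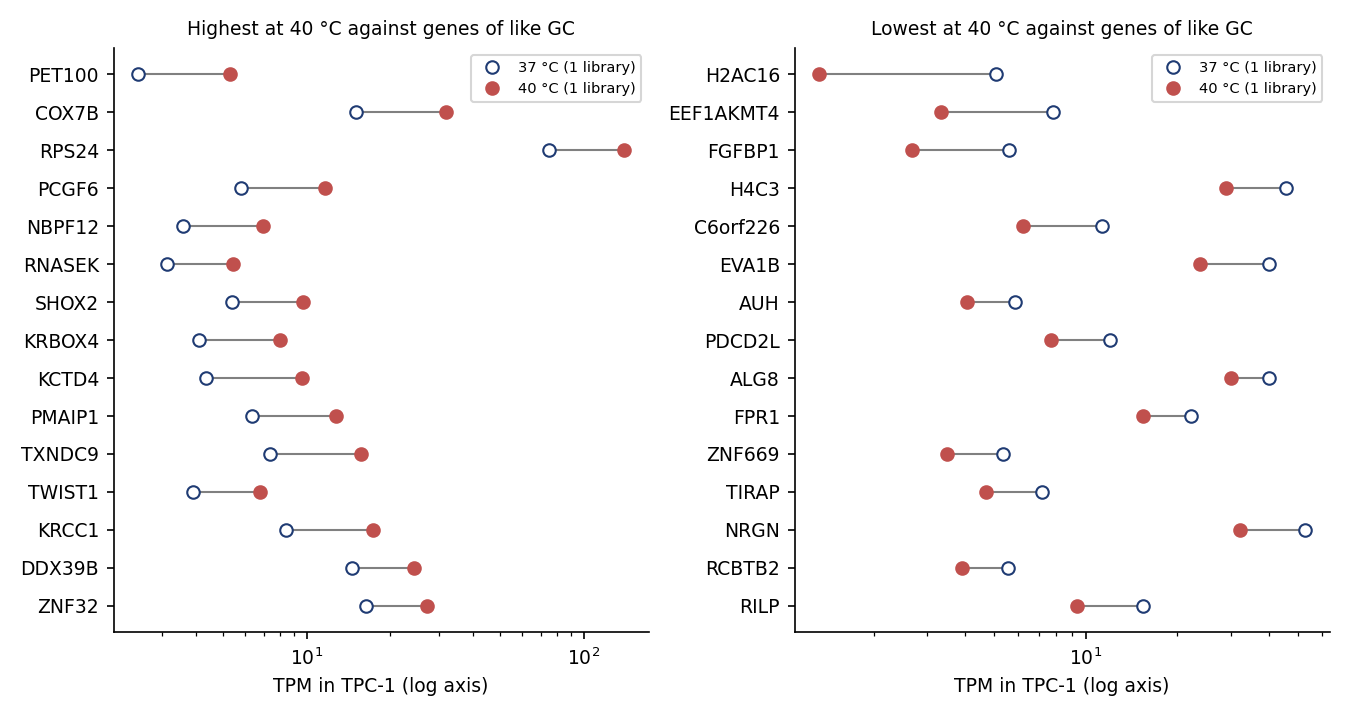
TPM on a log axis in the TPC-1 library at 37 °C (open circles) and at 40 °C (filled circles) for the 15 protein-coding genes with the highest (left) and lowest (right) GC-matched difference among those whose counting interval excludes 1. COX7B stands at 15.1 and 31.8 TPM on the left and EEF1AKMT4 at 7.80 and 3.32 TPM on the right.

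Among protein-coding genes the largest upward log2(TPM + 1) difference, before GC matching, was that of COX7B, a small nuclear-encoded subunit of cytochrome c oxidase, the last complex of the respiratory chain. COX7B (ENSG00000131174, chromosome X, 77899438 to 77907373) stood at 15.1 and 31.8 TPM (ratio 2.11, interval 1.82 to 2.44), a GC-matched difference of 0.90. RPS24 (ENSG00000138326, chromosome 10, 78033732 to 78056813), a protein of the small ribosomal subunit, stood at 74.7 and 140.4 TPM (ratio 1.88, interval 1.80 to 1.96) and had a GC-matched difference of 0.81. Both stood above all of the genes of like GC they were set against. PMAIP1 (ENSG00000141682, chromosome 18, 59899948 to 59904306) encodes NOXA, a BH3-only protein that promotes apoptosis, and stood at 6.36 and 12.8 TPM (ratio 2.01, interval 1.54 to 2.64). CXCL8, the chemokine interleukin-8, stood at 3.62 and 7.81 TPM (ratio 2.16, interval 1.52 to 3.09). Neither of these genes was abundant, with PMAIP1 on an estimated 86 and 165 reads and CXCL8 on 50 and 103.

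Some genes passed the level limit through the 40 °C library alone, and their high value there is then part of how they were chosen. This holds for 6 of the 15 genes highest by GC-matched difference (PET100, NBPF12, RNASEK, KRBOX4, KCTD4 and TWIST1) and 5 of the 15 highest before matching (PET100, KRBOX4, KCTD4, CXCL8 and TRAPPC2). Further genes on the higher side came from unlike cellular roles. PET100, an assembly factor of cytochrome c oxidase, had the largest GC-matched difference of protein-coding genes (0.97) at low levels of 2.46 and 5.30 TPM, from 33 and 68 reads. SRP9, a protein of the signal recognition particle, was the most abundant of the 15 with the largest unadjusted difference, at 137.7 and 246.5 TPM (ratio 1.79, interval 1.68 to 1.91). CHMP5, an ESCRT-III component in membrane scission, stood at 30.4 and 56.0 TPM. These 3 genes have separate roles. PCGF6, a Polycomb group protein, stood at 5.77 and 11.7 TPM (ratio 2.02, interval 1.59 to 2.59). DDX39B, an RNA helicase of splicing and mRNA export, stood at 14.6 and 24.5 TPM (ratio 1.68, interval 1.52 to 1.86), although 30.8% of its exonic bases lie in other gene models. TRAPPC2, a subunit of the TRAPP tethering complexes, stood at 4.14 and 8.16 TPM (ratio 1.97, interval 1.61 to 2.41). The transcription factors SHOX2 (5.38 and 9.68 TPM) and TWIST1 (3.89 and 6.76 TPM), both known from mesenchymal development, also belonged to the 15 highest by GC-matched difference. The remainder of that set were NBPF12, whose near-identical relatives make its level uncertain, RNASEK, KRBOX4, KCTD4, TXNDC9, KRCC1 and ZNF32. Their ratios ran from 1.66 (ZNF32) to 2.22 (KCTD4). Of the exonic bases of RNASEK and ZNF32, 36.9% and 38.6% lie in other gene models. LIN7C (1.88) and RSL24D1 (1.82), the latter a factor of large ribosomal subunit assembly, completed the 15 largest unadjusted differences.

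On the lower side EEF1AKMT4 (ENSG00000284753, chromosome 3, 184249650 to 184259585), which encodes a lysine methyltransferase of the elongation factor eEF1A, stood at 7.80 and 3.32 TPM (ratio 0.426, interval 0.279 to 0.638). Of its exonic bases 46.8% lie in other gene models. FGFBP1, a secreted protein that binds and releases fibroblast growth factors, stood at 5.60 and 2.67 TPM (ratio 0.478, interval 0.271 to 0.817). EVA1B (ENSG00000142694, chromosome 1, 36322031 to 36324154) stood at 40.0 and 23.7 TPM (ratio 0.593, interval 0.487 to 0.72). These values are low for EEF1AKMT4 and FGFBP1, which rest on 86 and 35 and on 46 and 21 reads. EEF1AKMT4 and FGFBP1 passed the level limit through the 37 °C library alone, so their high value there is part of how they were chosen. EVA1B rests on 293 and 166 reads, but 46.5% of its exonic bases lie in genes on the other strand. NRGN, which encodes the calmodulin-binding protein neurogranin, stood at 52.9 and 32.1 TPM (ratio 0.607, interval 0.516 to 0.713). RILP, a RAB7 effector in lysosome transport, stood at 15.5 and 9.33 TPM (ratio 0.603, interval 0.472 to 0.761), and MACROD1, an ADP-ribosyl hydrolase, at 12.9 and 7.68 TPM (ratio 0.594, interval 0.458 to 0.775). The lysosome appears again in ATP6V0C, the proteolipid subunit of the proton pump, at 41.1 and 26.5 TPM (ratio 0.645, interval 0.547 to 0.765), but 72.1% of its exonic bases lie in other gene models of the same strand. A share of at least 50% was found for 1.04% of the protein-coding genes, and strand was not kept by the library kit.

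Genes of middling GC content that stood low came to the front once GC was matched. ALG8, a glucosyltransferase of N-glycan assembly, stood at 40.0 and 30.2 TPM (ratio 0.754, interval 0.677 to 0.838), a GC-matched difference of -0.51. FPR1, the formyl peptide receptor, stood at 22.2 and 15.5 TPM (ratio 0.696, interval 0.587 to 0.824), a GC-matched difference of -0.50, with -0.60 in B-CPAP. Both rest on over 230 reads in each library. AUH, PDCD2L, ZNF669, TIRAP and RCBTB2 belonged to the same set with GC-matched differences from -0.53 (AUH) to -0.49 (RCBTB2). C6orf226, LAGE3, FAM110A, C1QTNF1 and ZFPM1 had unadjusted ratios from 0.551 to 0.646. On the lower side 7 of the 15 lowest by GC-matched difference passed through the 37 °C library alone (EEF1AKMT4, FGFBP1, AUH, ZNF669, TIRAP, RCBTB2 and H2AC16). Before matching it was 4 of the 15 lowest (EEF1AKMT4, FGFBP1, H2AC16 and ZFPM1). The high value of these genes at 37 °C is then part of how they were chosen. Among them H2AC16, a histone H2A gene, had the lowest ratio (0.262, interval 0.0474 to 0.97), from 12 and 3 reads.

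The inducible chaperones, a list of 14 heat shock proteins and cofactors, were mixed at 40 °C. Before GC matching 8 of the 12 that passed the level limit were higher, with a median log2 difference of 0.16, and the counting interval lay above 1 for 7 and below 1 for 3. Of the 12, 2 were called higher and 0 lower by GC-matched difference, against 4.37% and 1.32% of all protein-coding genes. The list's median GC-matched difference was 0.05 (0.11 under quantile normalization), with 7 of 12 above genes of like GC, against 49.7% of all. HSPE1, the mitochondrial co-chaperonin, stood highest of them by this measure (0.47; 28.4 and 39.8 TPM). HSP90AA1, the stress-inducible cytosolic HSP90, was by far more abundant and stood at 545.0 and 705.3 TPM (ratio 1.29, interval 1.27 to 1.32), a GC-matched difference of 0.30. HSPA1B, an inducible HSP70, stood at 36.1 and 41.5 TPM (ratio 1.15, interval 1.02 to 1.29), with a GC-matched difference of 0.33. Its near-identical copy HSPA1A was listed at 0.13 and 0.21 TPM, which leaves the split of reads between both genes open to doubt. HSPA6, the HSP70 gene most strictly tied to stress, was at 0.28 and 0.07 TPM. DNAJB1, the HSP40 partner of HSP70, stood at 162.8 and 144.8 TPM (ratio 0.89, interval 0.848 to 0.934) and within 0.06 of its like-GC genes (-0.05; 0.00 after quantile normalization). HSPA8, the constitutive HSC70 (1464 and 1394 TPM), and HSPB1, the small chaperone HSP27 (721.5 and 635.3 TPM), had ratios of 0.952 and 0.881.

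The other members lay close to genes of like GC. The HSP40 DNAJA1 had a ratio of 1.15, HSPD1, the chaperonin that HSPE1 caps, 1.11, HSPH1, a nucleotide exchange factor of HSP70, 1.13, and HSPA4L, its relative, 1.32. BAG3, a cofactor of HSP70 in selective autophagy, stood at 199.5 and 194.0 TPM and CHORDC1, an HSP90 cofactor, at 5.75 and 6.27 TPM. Their GC-matched differences lay between -0.13 (CHORDC1) and 0.13 (HSPA4L).

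The promoters of 3 of these genes are shown for their heat shock elements, the sites that HSF1 is known to bind. The windows are the 250 bases before a RefSeq start (GRCh38.p14, 5′ to 3′ on the gene's strand), and capitals mark the heat shock element core, searched as GAANNTTC or TTCNNGAA, each of which reads the same on both strands; matches may overlap. HSPA1B (chr6:31827488-31827737, plus strand) holds 1 match, HSP90AA1 (chr14:102087045-102087294, minus strand) 3 and DNAJB1 (chr19:14518398-14518647, minus strand) 2.
HSPA1B: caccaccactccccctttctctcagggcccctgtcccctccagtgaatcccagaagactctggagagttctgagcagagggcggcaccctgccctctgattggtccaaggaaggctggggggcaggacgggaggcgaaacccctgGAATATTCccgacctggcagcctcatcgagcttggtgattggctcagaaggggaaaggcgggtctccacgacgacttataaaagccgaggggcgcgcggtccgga
HSP90AA1: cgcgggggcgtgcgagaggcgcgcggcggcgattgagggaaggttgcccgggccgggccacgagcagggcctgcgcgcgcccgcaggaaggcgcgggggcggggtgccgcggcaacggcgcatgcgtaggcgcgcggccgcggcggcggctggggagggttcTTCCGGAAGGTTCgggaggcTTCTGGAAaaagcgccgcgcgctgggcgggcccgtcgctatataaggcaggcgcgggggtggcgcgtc
DNAJB1: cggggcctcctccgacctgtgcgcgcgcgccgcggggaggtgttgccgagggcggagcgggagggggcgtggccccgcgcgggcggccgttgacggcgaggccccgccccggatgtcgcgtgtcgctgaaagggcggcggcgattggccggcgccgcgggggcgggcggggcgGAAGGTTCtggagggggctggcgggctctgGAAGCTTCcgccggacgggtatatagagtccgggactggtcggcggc
HSP90AA1 and DNAJB1 have other RefSeq starts whose windows hold no match. HSPE1, the chaperone with the highest GC-matched difference (0.47), holds no match in its window either. HSPD1, which overlaps HSPE1 on the opposite strand, does hold a match in a window of its own. Of 14 chaperone genes, 11 hold a match in at least 1 of their 20 windows, and 14% of 27305 genes and 11.6% of 35116 windows do. DNAJB1 with 2 matches was lower at 40 °C (ratio 0.89) and HSP90AA1 with 3 was higher (ratio 1.29). A match is a description of these letters and does not show that HSF1 was bound.

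**Figure D3:**
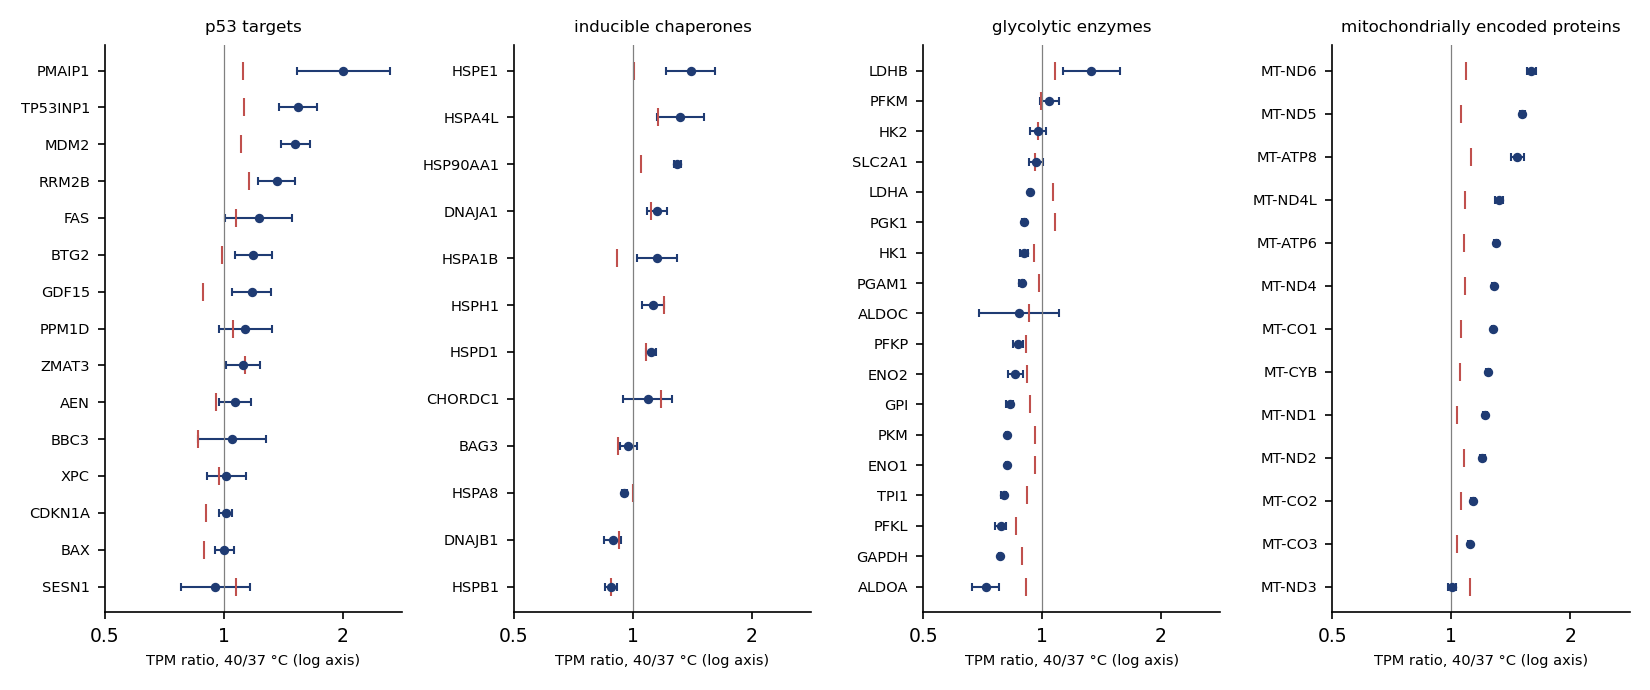
TPM ratio of the 40 °C to the 37 °C library of TPC-1 on a log axis for the members of 4 gene lists that passed the level limit; bars are 95% counting intervals and the upright red tick is the median ratio of the protein-coding genes of like GC content. PMAIP1 stands at 2.01 among p53 targets, HSPE1 at 1.40 among chaperones, ALDOA at 0.720 among glycolytic enzymes and MT-ND6 at 1.59 among mitochondrially encoded genes.

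Cold-inducible RNA-binding genes did not stand lower at 40 °C. CIRBP, whose transcript is known to fall with warming, stood at 51.1 and 58.1 TPM (ratio 1.14, interval 1.07 to 1.21), a GC-matched difference of 0.31. RBM3 stood at 220.2 and 222.1 TPM (ratio 1.01, interval 0.969 to 1.05) and SRSF5 at 40.1 and 46.2 TPM (ratio 1.15, interval 1.07 to 1.24). Of the 3, CIRBP and SRSF5 were higher beyond counting error and RBM3 was not, and 0 were called. Among CLK kinases and SR proteins 13 of 14 passed the level limit, and the median GC-matched difference was 0.10. Of these, 1 was called higher and 0 lower (4.37% and 1.32% of all protein-coding genes). CLK1, 1 of the kinases, stood at 5.79 and 9.27 TPM (ratio 1.60, interval 1.32 to 1.94; GC-matched 0.41). SRSF11 followed at 27.0 and 38.2 TPM (ratio 1.42, interval 1.32 to 1.52), whereas CLK2 (0.998) and CLK3 (1.06) had ratios near 1. CLK4 stayed below the limit at 1.34 and 1.62 TPM. The remaining SR and TRA2 genes, SRSF1, SRSF2, SRSF3, SRSF4, SRSF6, SRSF7, SRSF10, TRA2A and TRA2B, had ratios of 1.03 (SRSF4) to 1.27 (SRSF6). The list as a whole is AT-rich, and CLK1 was the 1 gene of the 13 called.

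Ubiquitin is encoded by polyubiquitin genes and by genes that fuse it to ribosomal proteins. The polyubiquitin gene UBB stood at 1055 and 1001 TPM (ratio 0.949, interval 0.923 to 0.976), slightly lower at 40 °C, and lay within 0.06 of genes of like GC, with a sign that turned under quantile normalization (0.04). RPS27A, a fusion gene, stood higher at 234.4 and 363.8 TPM (ratio 1.55, interval 1.49 to 1.61), a GC-matched difference of 0.57. Both carry near-identical ubiquitin repeats or have pseudogenes, which makes their levels uncertain.

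Targets of the tumour suppressor p53, which couples stress to cell cycle arrest and apoptosis, were on the higher side. All 15 listed genes passed the level limit, 4 were called higher by GC-matched difference and 0 lower (4.37% and 1.32% of all genes), and 13 of 15 stood above genes of like GC. The median GC-matched difference was 0.17, and the counting interval of the ratio lay above 1 for 8 of the 15 and below 1 for 0. Beside PMAIP1 these were TP53INP1, a stress-induced cofactor of p53 (15.7 and 24.1 TPM; ratio 1.54, interval 1.38 to 1.72), MDM2, the ubiquitin ligase that restrains p53 (12.1 and 18.3 TPM; ratio 1.52, interval 1.40 to 1.65), and GDF15, a stress cytokine (44.0 and 51.8 TPM; ratio 1.18, interval 1.05 to 1.32). Not all targets took part, and the arrest gene CDKN1A and the apoptosis gene BAX, both chosen after their values were seen, stood at 312.1 and 316.0 TPM and 179.0 and 180.0 TPM. In B-CPAP 9 of the 15 passed the limit, with a median of 0.05 and 0 called either way.

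The integrated stress response, in which ATF4 is translated when eIF2 is phosphorylated, showed isolated differences. Of 12 genes passing, 2 were called higher and 0 lower, with a median of 0.01 whose sign turned under 3 of the alternatives. The shares over all protein-coding genes, here and for the lists that follow, were 4.37% higher and 1.32% lower. CHAC1 (4.27 and 5.23 TPM) and DDIT3, which encodes the stress factor CHOP (8.10 and 10.99 TPM), were the 2, and the counting intervals of both ratios included 1. CHAC1 passed the level limit through the 40 °C library alone. ATF4 itself stood at 469.9 and 513.7 TPM (ratio 1.09, interval 1.06 to 1.13) and XBP1, a factor of the unfolded protein response, at 115.4 and 107.6 TPM (ratio 0.932, interval 0.876 to 0.993). Immediate early genes, which answer growth factors and stress within minutes, differed little in size from their like-GC genes, but 12 of 13 stood above them (49.7% of all genes did). Of 13 passing, 1 was called higher (IER2, 12.1 and 14.2 TPM, interval 0.98 to 1.42) and 0 lower, with a median of 0.06 (-0.09 before GC matching). Before matching, the counting interval lay below 1 for 4 of the 13 and above 1 for 1. DUSP1 (1.06), ZFP36 (1.03) and KLF2 (0.927) had intervals that included 1. ERK feedback genes gave 0 calls either way among 12, with a median of 0.05. DUSP6, the ERK phosphatase induced by ERK itself, stood at 12.9 and 15.4 TPM (ratio 1.20, interval 1.04 to 1.38) and the Sprouty gene SPRY2 at 39.0 and 43.6 TPM. ETV4 (0.788) and SPRED2 (0.831) were lower beyond counting error, so the feedback genes did not share a direction.

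Glycolytic enzymes were lower at 40 °C. All 18 genes passed the level limit, 2 were higher and 16 not, and 3 stood above genes of like GC (49.7% of all genes did). The median log2 difference was -0.19 before and -0.14 after GC matching, or -0.05 under quantile normalization, and the counting interval lay below 1 for 13 genes and above 1 for 1. Few differences were large, with 1 gene called lower and 0 higher (1.32% and 4.37% of all protein-coding genes). ALDOA, the aldolase of muscle and most other tissues, was the 1 called (68.1 and 49.0 TPM; ratio 0.72, interval 0.667 to 0.778), and 53.5% of its exonic bases lie in other gene models. ENO1, enolase, is far more abundant and stood at 6413 and 5218 TPM (ratio 0.814, interval 0.808 to 0.819). PGK1, phosphoglycerate kinase, stood at 1551 and 1397 TPM (ratio 0.901, interval 0.889 to 0.912). LDHB, a lactate dehydrogenase subunit, was the exception at 13.97 and 18.6 TPM (ratio 1.33, interval 1.13 to 1.58). Of its exonic bases 33.4% lie in another gene model. In B-CPAP the list's median was -0.05 with 1 called each way.

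Hypoxia targets outside glycolysis did not share a direction. Before GC matching 6 of the 11 that passed, of 15 listed, were higher, with a median log2 difference of 0.03. The counting interval lay above 1 for 5 and below 1 for 1. By GC-matched difference 0 were called higher and 1 lower (4.37% and 1.32% of all protein-coding genes). Above genes of like GC stood 4, and the GC-matched median of -0.07 turned to 0.01 under quantile normalization. NDRG1, the gene called lower, stood at 386.1 and 290.8 TPM (ratio 0.753, interval 0.738 to 0.768). VEGFA, the angiogenic growth factor (58.6 and 64.2 TPM; ratio 1.10, interval 1.06 to 1.14), and BNIP3L, a mitophagy receptor (87.3 and 109.1 TPM; ratio 1.25003, interval 1.18 to 1.32), were higher beyond counting error, and P4HA2, a collagen prolyl hydroxylase, had a ratio of 0.934.

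Mitochondrially encoded protein genes, 13 subunits of the respiratory chain and ATP synthase made from the mitochondrial genome, were higher at 40 °C throughout. All 13 had a positive unadjusted difference (median 0.35), and 12 had a counting interval above 1. After GC matching the median was 0.24, with 12 of 13 above the protein-coding genes of like GC and 3 called higher. Of all protein-coding genes 49.7% stood above genes of like GC and 4.37% were called higher. MT-ND6 (2602 and 4147 TPM; ratio 1.59, interval 1.55 to 1.64), MT-ND5 (3108 and 4696 TPM; ratio 1.51, interval 1.49 to 1.53) and MT-ATP8 (3337 and 4906 TPM; ratio 1.47, interval 1.41 to 1.53) led, and MT-ND4L stood at a ratio of 1.32. MT-ND6 lies on the opposite strand from the other 12 and the kit kept no strand, and MT-ATP8 and MT-ND4L overlap their neighbours. All 13 come from shared long transcripts and are not independent of one another.

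Nuclear subunits of the same complexes split by gene. The shares over all protein-coding genes, 4.37% called higher and 1.32% lower, and 8.57% higher in the group of shortest coding sequences, stand beside the counts that follow. Of 35 complex I genes passing, 5 were called higher and 0 lower, with a median of 0.03. NDUFB3 (31.5 and 51.7 TPM; ratio 1.64, interval 1.38 to 1.96), NDUFA1 (198.7 and 281.6 TPM; ratio 1.42, interval 1.30 to 1.54), NDUFS4 (26.9 and 40.4 TPM; ratio 1.502, interval 1.24 to 1.82) and NDUFA6 (73.7 and 100 TPM; ratio 1.36, interval 1.22 to 1.51) were 4 of the 5, and 44.5% of the exonic bases of NDUFA1 lie in a gene on the other strand. Cytochrome c oxidase genes gave 3 higher and 0 lower of 17, with a median of 0.01 that turned to -0.06 when exon length was matched as well. Beside COX7B these were COX6C (41.9 and 72.9 TPM; ratio 1.74, interval 1.59 to 1.90) and COX7C (137.8 and 197.9 TPM; ratio 1.44, interval 1.347 to 1.53), all 3 small membrane-spanning subunits, while COX11, an assembly factor, had a ratio of 1.24569. ATP synthase genes gave 2 higher and 1 lower of 15, with a median of -0.04 that turned to 0.01 under quantile normalization. ATP5PO (1.45) and ATP5PB (1.46) of the peripheral stalk were higher, ATP5F1D (106.3 and 72.3 TPM; ratio 0.68, interval 0.625 to 0.738) of the central stalk was lower, and ATP5MC1 of the membrane ring had a ratio of 0.853. Mitochondrial ribosome genes gave 3 higher and 0 lower of 33, with a median of 0.10 (0.21 before GC matching). MRPL1 (6.09 and 10.6 TPM), MRPL13 (17.6 and 27.1 TPM) and MRPL47 (31.1 and 47.3 TPM) were highest, and MRPL15, uncalled, had a ratio of 1.27.

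**Figure D4:**
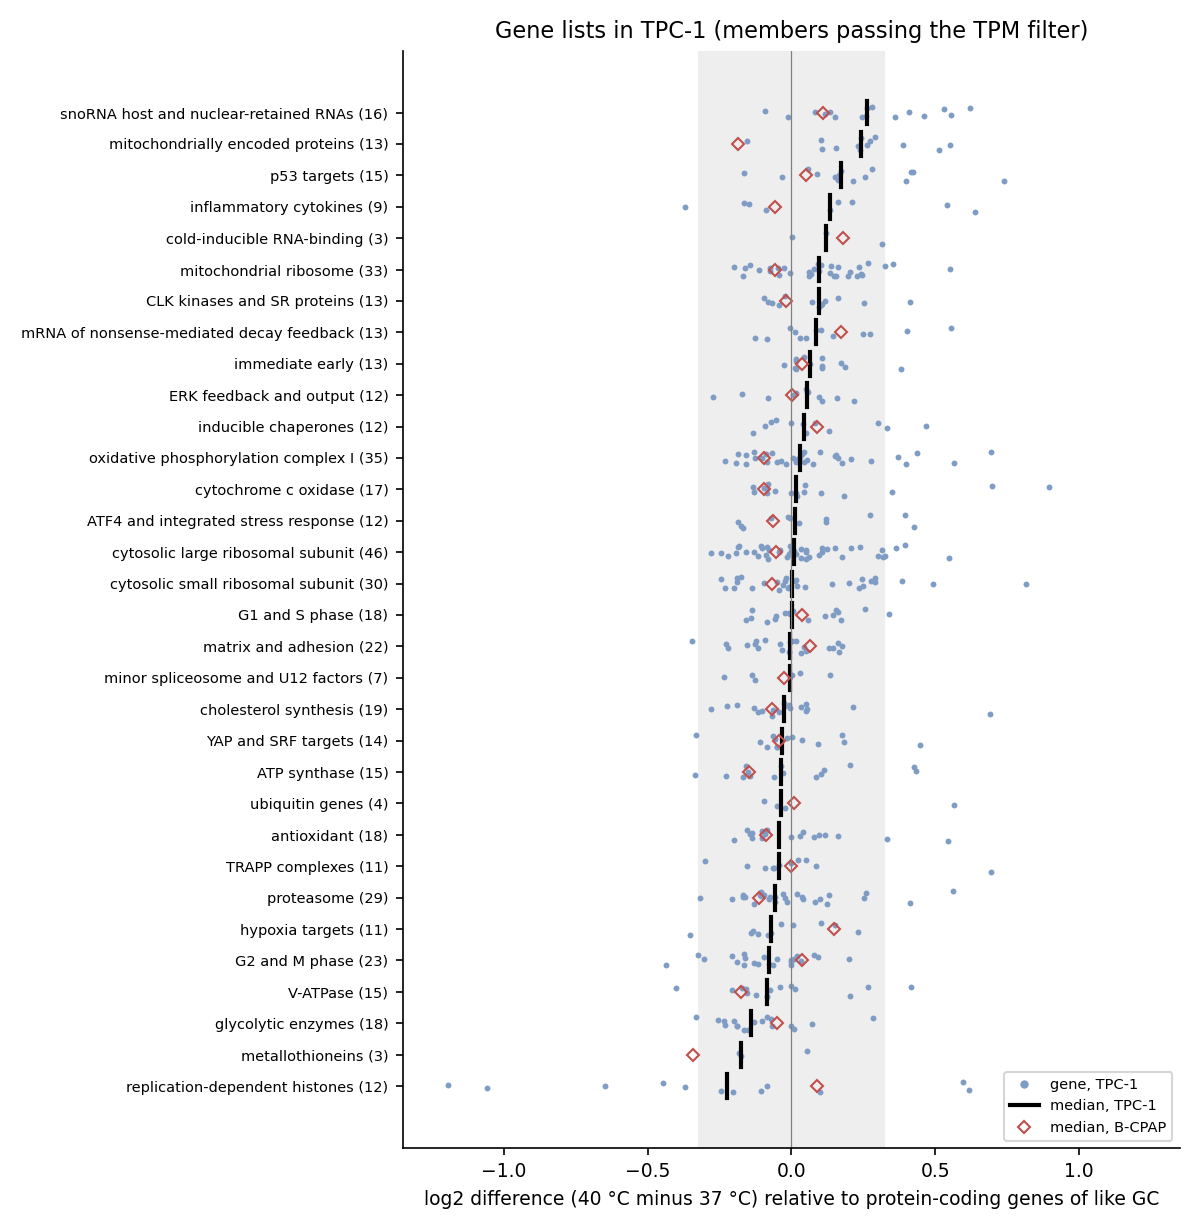
GC-matched log2 difference of TPC-1 (40 °C minus 37 °C) for each member of 32 gene lists that passed the level limit (dots, number in brackets), with the list's median in TPC-1 (black bar) and in B-CPAP (red diamond); the grey band spans 0.32 either way. Medians in TPC-1 run from 0.26 to -0.22 at the settings of the plot, and most members lie inside the band.

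Cytosolic ribosomal protein genes were centred on their like-GC genes. The counting interval lay above 1 for 22 and below 1 for 17 of 46 large subunit genes, and for 13 each way of 30 small subunit genes. Large subunit genes gave 4 higher and 0 lower of 46 (median 0.01), and small subunit genes 3 higher and 0 lower of 30 (median 0.00), both medians turning below 0 when exon length was matched as well. RPL7 (642.4 and 993.3 TPM; ratio 1.55, interval 1.51 to 1.58), RPL39 (1.36), RPL11 (1.29) and RPL6 (1.34) were the 4, and RPS24 and RPS7 (190.7 and 289.7 TPM; ratio 1.52, interval 1.47 to 1.57) were among the 3. RPS25 had a ratio of 1.22. These genes are short, and 8.57% of all genes in the shortest group by coding length were called higher. They also have many processed pseudogenes, so reads can be split between copies. Proteasome genes gave 2 higher and 0 lower of 29, with a median of -0.06 (0.02 under quantile normalization). All protein-coding genes gave 4.37% higher and 1.32% lower. PSMA4, a subunit of the core ring (21.5 and 35.3 TPM; ratio 1.64, interval 1.51 to 1.78), and PSMC6, an ATPase of the regulatory particle (9.40 and 15.4 TPM; ratio 1.64, interval 1.45 to 1.86), were the 2, PSMA3 had a ratio of 1.42 and PSMD1 one of 0.891. In each of these complexes the genes called were a minority of the members.

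In complexes of the lysosome and Golgi few genes were called. V-ATPase genes gave 1 higher and 1 lower of 15 (4.37% and 1.32% of all protein-coding genes), with a median of -0.09. ATP6V1G1 of the peripheral stalk stood at 57.9 and 81.9 TPM (ratio 1.41, interval 1.25032 to 1.60), ATP6V0C was the lower gene, and ATP6V1D and ATP6V1B2 had ratios of 1.36 and 0.964. TRAPP genes gave TRAPPC2 higher and 0 lower of 11, with a median of -0.04. TRAPPC9 (0.769), TRAPPC12 (0.857) and TRAPPC1 (0.844) had counting intervals below 1.

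Replication-dependent histones, which are made in S phase and lack a poly(A) tail, had a median of -0.22 after GC matching, which came to -0.12 with a limit of 1 TPM, -0.15 with a mean of at least 5 TPM and -0.08 with no limit. Of 25 listed genes 23 were found by symbol and 12 passed, with 2 called higher and 5 lower. Over all protein-coding genes 4.37% were called higher and 1.32% lower. H4C3, a histone H4 gene, was the 1 lower gene with more than 50 reads in each library, at 45.6 and 29.05 TPM (ratio 0.637, interval 0.469 to 0.859; 120 and 73 reads). H4C11 (5.76 and 1.86 TPM, interval 0.0765 to 1.04) and H2AC16 rest on few reads, and H1-4 was on the higher side at 5.92 and 8.49 TPM with an interval of 0.85 to 2.45. H4C11 and H2AC16 passed the level limit through the 37 °C library alone. The counting interval lay below 1 for 2 of the 12 and above 1 for 1. Histone genes are short copies of one another, and polyadenylated libraries hold little of their RNA, so these levels are uncertain. Other genes of the G1 and S phases showed no matching shift, with 1 called higher and 0 lower of 18 and a median of 0.00. PCNA, the sliding clamp of replication, was the 1 (231.1 and 303.6 TPM; ratio 1.31, interval 1.24 to 1.39), and SLBP, which binds histone mRNA, stood at 119.2 and 140.9 TPM (ratio 1.18, interval 1.10 to 1.27). UNG and CHAF1A had ratios of 1.11 and 1.02. G2 and M genes gave 0 higher and 2 lower of 23, with a median of -0.08 (0.00 under quantile normalization). These were the kinesin genes CENPE, at 13.6 and 12.2 TPM with a ratio of 0.898, and KIF20B, at 23.1 and 22.6 TPM with a ratio of 0.978, both among the poorest in GC, with 34.7% and 34.1% GC in their exons. TTK, a spindle checkpoint kinase, and the spindle pole protein gene ASPM had ratios of 0.89 and 1.03.

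Inflammatory genes were mostly scarce. Of 18 cytokine and chemokine genes 9 passed, and 2 were called higher and 1 lower (4.37% and 1.32% of all protein-coding genes). The median was 0.13 (-0.10 with a limit of 1 TPM). CXCL8 and CXCL2 (3.67 and 5.82 TPM; ratio 1.59, interval 1.002 to 2.54), both ligands of neutrophil receptors, were higher, although both passed the limit through the 40 °C library alone, and with a mean of at least 5 TPM the list's median was 0.02. Conversely IL11, a cytokine that signals through gp130, was lower at 14.4 and 9.82 TPM (ratio 0.68, interval 0.553 to 0.841). LIF, another gp130 cytokine, had a ratio of 1.06. Matrix and adhesion genes gave 0 higher and 1 lower of 22 with a median of -0.01 (0.02 under quantile normalization). The integrin ITGA2 was the 1 (34.8 and 30.8 TPM; ratio 0.885, interval 0.823 to 0.95). FN1, fibronectin, stood at 1195 and 1427 TPM (ratio 1.19, interval 1.19 to 1.20), and TIMP1 at a ratio of 0.78. YAP and SRF targets gave 1 each way of 14, with a median of -0.03 (0.02 under quantile normalization). AMOTL2, a YAP target that feeds back on YAP, stood at 38.5 and 47.6 TPM (ratio 1.24, interval 1.15 to 1.33) and ACTA2, smooth muscle actin, at 13.9 and 10.9 TPM (ratio 0.784, interval 0.646 to 0.951), with CCN1 at a ratio of 1.10 and LATS2 at 1.11.

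Redox, metal and sterol genes had medians near 0 or below. Antioxidant genes gave 2 higher and 0 lower of 18 (4.37% and 1.32% of all protein-coding genes). Their median was -0.04 (0.02 under quantile normalization). SRXN1, sulfiredoxin, stood at 4.96 and 7.31 TPM (ratio 1.47, interval 1.10 to 1.98), with 85.0% of its exonic bases in another gene model of the same strand, and TXN, thioredoxin, at 422.0 and 591.3 TPM (ratio 1.40, interval 1.33 to 1.47). SRXN1 passed the level limit through the 40 °C library alone. SOD1 had a ratio of 1.07 and OSGIN1, an NRF2 target, one of 0.777. Of 8 metallothionein genes and their regulators 3 passed with 0 calls and a median of -0.18 (0.01 with no limit on level). MT2A, the 1 metallothionein that passed, stood at 1029 and 819.5 TPM (ratio 0.796, interval 0.77 to 0.823), the zinc-sensing factor MTF1 at 12.8 and 11.7 TPM and the zinc exporter SLC30A1 at 17.2 and 21.5 TPM. Cholesterol synthesis gave 1 higher and 0 lower of 19, with a median of -0.03 (0.01 under quantile normalization). IDI1, isopentenyl diphosphate isomerase, stood apart at 15.6 and 27.7 TPM (ratio 1.78, interval 1.57 to 2.01), while DHCR7 had a ratio of 0.781 and TM7SF2 one of 1.03.

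Noncoding RNAs that host small nucleolar RNAs or remain in the nucleus were on the higher side, with a list median of 0.26 after GC matching and 0.35 before. Over all other genes of at least 200 bases the GC-matched median was 0.14, as these too are set against protein-coding genes. Of 20 listed 16 passed, with 6 called higher and 0 lower (4.37% and 1.32% of protein-coding genes). The share so called over other genes of at least 200 bases was not counted. Of the 16, 14 stood above protein-coding genes of like GC. For 12 the counting interval lay above 1, and for 0 below 1. NEAT1, the scaffold of paraspeckles, stood at 9.26 and 16.01 TPM (ratio 1.73, interval 1.61 to 1.86), and MALAT1, an RNA of nuclear speckles, at 125.5 and 203.1 TPM (ratio 1.62, interval 1.57 to 1.67). The snoRNA host genes GAS5 (51.9 and 83.6 TPM; ratio 1.61, interval 1.49 to 1.73) and SNHG5 (56.4 and 86.5 TPM; ratio 1.53, interval 1.41 to 1.67) stood at like ratios. GAS5 and many such hosts are degraded by nonsense-mediated decay, and a list of transcripts under that decay or its feedback gave 2 higher and 0 lower of 13, with a median of 0.09. GADD45A, a stress gene on that list, stood at 30.7 and 36.9 TPM (ratio 1.20, interval 1.05 to 1.38) and the decay factor UPF3A at 15.5 and 19.7 TPM (ratio 1.27, interval 1.13 to 1.43). Factors of the minor spliceosome gave 0 calls of 7, with a median of -0.01. ZCRB1 was at a ratio of 1.355, and SNRNP35, SNRNP25 and ZMAT5 were at 0.835, 0.829 and 0.831.

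Genes outside the protein-coding class leaned to the higher side. Of 674 such nuclear genes of at least 200 bases, 33 (4.9%) stood 2-fold higher and 10 (1.48%) lower, and 30 (4.45%) and 6 (0.89%) had a counting interval that excluded 1. With a mean of at least 5 TPM the counts were 21 higher and 4 lower. Their median log2 difference was 0.12. By class, antisense RNAs (177 genes) had a median of 0.10, lincRNAs (164 genes) 0.16, processed pseudogenes (139 genes) 0.08 and sense-intronic transcripts (36 genes) 0.36. The 8 with the largest difference upward, all at 2.31 TPM or less at 37 °C and so past the limit through the 40 °C library alone, rested on at most 20 reads in the 40 °C library, such as RN7SL689P, a 7SL RNA pseudogene, on 4 and 16 reads (2.23 and 9.33 TPM; ratio 4.19, interval 1.351 to 17.2). Downward, the ribosomal protein pseudogene RPS18P5 was the best supported, on 173 and 69 reads (62.3 and 26.0 TPM; ratio 0.418, interval 0.311 to 0.555), and such reads may belong to its parent gene. POLH-AS1 stood at 6.01 and 2.62 TPM and SEC22B3P, a pseudogene, at 7.75 and 3.61 TPM. RPL29P14, also a ribosomal pseudogene, rested on 15 and 3 reads (ratio 0.209, interval 0.0389 to 0.74). Among 197 shorter genes 71 (36%) stood 2-fold higher and 45 (22.8%) lower, at read numbers too low to name any.

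The B-CPAP values were set beside those of TPC-1. In B-CPAP 633 of 9275 protein-coding genes (6.82%) were called higher by GC-matched difference and 376 (4.05%) lower. Of 8431 genes passing in both lines, 60 were called higher in both, which is 18.1% of the 331 in TPC-1 and 11% of the 545 in B-CPAP. Those lower in both were 8, or 8.51% of 94 and 2.39% of 335, and were chosen for naming after their values were seen: FPR1, FAM110A, MED31, ATP6V0C, AP3B1, INO80C, CCDC71L and POLB. A further 14 were higher in TPC-1 and lower in B-CPAP (4.23% of the 331 and 4.18% of the 335), and 9 the reverse (9.57% of the 94 and 1.65% of the 545). The lines share no library, and whether their differences are unequal was not tested.

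NDUFB3, RPS24 and PCGF6 were among the genes called higher in both lines. Their GC-matched differences, TPC-1 first, were 0.70 and 0.73 for NDUFB3, 0.81 and 0.47 for RPS24 and 0.80 and 0.45 for PCGF6. PET100 (0.97 and 0.54) was called in both too, but in each line it passed the limit through the 40 °C library alone. Its high value there is then part of how it was chosen, and in B-CPAP the interval of its ratio (0.973 to 1.79) included 1. COX7B stood at 70.2 and 93.2 TPM in B-CPAP, a GC-matched difference of 0.01. Of the 15 genes highest by GC-matched difference in TPC-1, 13 passed the limit in B-CPAP. Of these, 4 (PET100 included) were called higher there and 0 lower. Of the 15 lowest, 12 passed and 1 was called lower and 0 higher. CXCL8 stood at 12.7 and 11.7 TPM in B-CPAP, with a ratio of 0.916, interval 0.751 to 1.12, and its GC-matched difference there was -0.80. CENPE and KIF20B, low in TPC-1 by this measure, stood at 1.03 and 1.03 in B-CPAP.

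**Figure D5:**
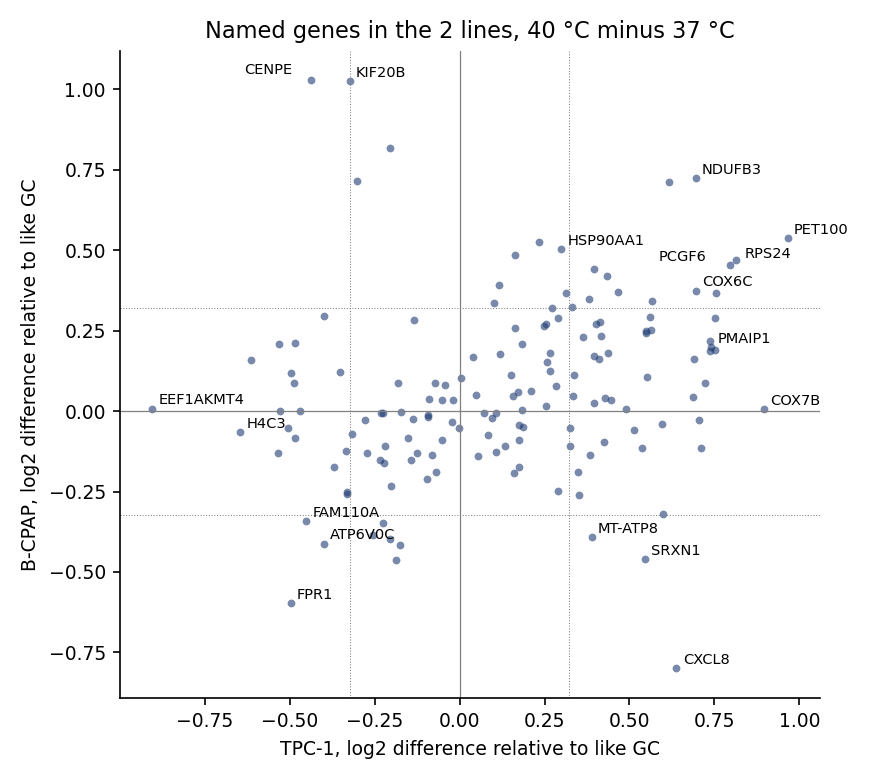
GC-matched log2 difference (40 °C minus 37 °C) in TPC-1 (horizontal) and B-CPAP (vertical) for the named protein-coding genes that passed the level limit in both lines; dotted lines mark 0.32 either way. NDUFB3 (0.70 and 0.73) lies at the upper right, FPR1 (-0.50 and -0.60) at the lower left, and CXCL8 (0.64 and -0.80) and CENPE (-0.44 and 1.03) lie in opposite corners.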

How the data were processed

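RNA from 4 samples, TPC-1 and B-CPAP at 37 °C and 40 °C, was extracted with RNeasy Plus and made into libraries with the TruSeq RNA v2 kit, which keeps no strand, per the labels' protocols. The authors deposited TPM values per gene. Trimmomatic 0.38, featureCounts 2.0.0, FastQC, MultiQC and GRCh38 are named in the submitters' processing notes; the annotation and the aligner: not given in the sources used here. From the deposited TPM and GENCODE 29 exon lengths, reads were estimated from the steps of low values, and 91.9% and 92.2% of TPC-1 values up to 20 reads came out whole within 0.02. These gave the 95% Clopper-Pearson intervals.

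Log2 differences used a pseudocount of 1 and genes of at least 5 TPM in either TPC-1 library. Each difference was also taken relative to the median of its neighbours in exonic GC, 100 protein-coding genes on each side. Near either end of the GC range the outermost 201 genes were used. Calls were 1.5-fold, a log2 difference of 0.32 after GC matching, and 2-fold for other genes. Named genes are, among those whose counting interval excludes 1, the 15 highest and lowest protein-coding genes by each measure and the 8 highest and lowest other genes; and, whatever the interval, 4 genes per list, and the whole chaperone, cold-inducible, CLK and SR, and ubiquitin lists. A few of these genes are not reported here. The members and lists were chosen with earlier results of these data known. Counts were simulated for 9346 genes with 200 changed, with counting error only and no variation between cultures or libraries. Of 1.5-fold changes 99.4% and of 2-fold changes 99.9% were recovered, with 53.2 false calls on average over 10 simulations. The number of false calls among the real ones cannot be read from this. Python 3.11.15, numpy 2.4.6, pandas 2.3.3, scipy 1.17.1 and matplotlib 3.10.9 were used.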

Additional observations from a re-analysis of the deposited data

Results flagged for a closer look

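Given here are named genes whose GC-matched log2 difference (40 °C minus 37 °C) was at least 0.32 in size and of opposite sign in the 2 lines, with both intervals apart from genes of like GC, and lists with opposite medians of at least 0.1 in size. There were 5 such genes and 1 list, other genes and lists had opposite signs at smaller sizes, and in each case the difference between the lines was not tested. CENPE, a kinesin of chromosome alignment, stood at -0.44 in TPC-1 and 1.03 in B-CPAP. KIF20B, a kinesin of cytokinesis, stood at -0.32 in TPC-1 and 1.03 in B-CPAP. CXCL8 stood at 0.64 in TPC-1 and -0.80 in B-CPAP. In each line CENPE, KIF20B and CXCL8 were all set against the same genes, the poorest in GC. SRXN1 stood at 0.55 in TPC-1 and -0.46 in B-CPAP. In TPC-1 it passed the limit through the 40 °C library alone, and 85.0% of its exonic bases lie in another gene model. MT-ATP8 stood at 0.39 in TPC-1 and -0.39 in B-CPAP. The 13 mitochondrially encoded genes had a TPC-1 median of 0.24, and in B-CPAP the median was -0.18. Before GC matching these genes were higher at 40 °C in B-CPAP too, 11 of 13 of them with a median log2 difference of 0.10, so the opposite sign appears only after matching. CXCL8 in B-CPAP had a TPM ratio of 0.916 with an interval of 0.751 to 1.12, and MT-ATP8 one of 1.08 with an interval of 1.05 to 1.11.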

How the results depend on the processing

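No paired analysis was possible because each group is 1 library, and for the same reason no replicate could be left out. The counts of calls depended on the settings. They are given as 1.5-fold higher (116) and lower (14), GC-matched higher (408) and lower (123), and other genes 2-fold higher (33) and lower (10). Counts not listed under a setting changed by at most 1.5-fold either way, which is not the same as unchanged. A pseudocount of 0.1 gave 170, 24, 491, 173, 47 and 18 in that order. A pseudocount of 5 gave 30 higher, 5 lower, 196 and 36 GC-matched, and 4 and 1 other genes. A limit of 1 TPM gave 204, 54, 696, 286, 394 and 224 in that order. A limit of 10 TPM gave 69, 9, 272, 64, 12 and 2. A mean of at least 5 TPM gave 21 and 4 other genes. No limit gave 244, 79, 1081, 512, 394 and 224. Quantile normalization gave 65 higher, 36 lower, 217 GC-matched lower and 18 other genes lower. Rescaling without mitochondrially encoded genes gave 187 higher and 9 lower. Requiring an interval that excludes 1 gave 6 other genes lower. No GC matching at the same limit gave 857 higher and 281 lower. The cause was not tested. Of 112 named genes called, 110 kept their call with 250 neighbours on each side and 102 with GC and length matched. The call was kept by 103 with quantile normalization, 103 with no matching and 93 with a pseudocount of 5. Named genes were mostly picked for large differences, and that choice by itself favours keeping a call. Of 8 lists with a median at least 0.1 from 0, all 8 kept their sign except 1 (cytokines) at 1 TPM and 1 (metallothioneins) with no limit. At the low end, genes on few reads have wide intervals, which limits what can be said of them.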
